A study of Mus musculus with 16 samples.

Results

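The 10 genes described here are Aqp2, Aqp3, Aqp4, Avpr2, Scnn1a, Scnn1b, Scnn1g, Hsd11b2, Tmem45b and Stc1. As a set they are named for water and sodium handling by the principal cells of the kidney collecting duct. They were taken by name from the deposited table of log2 array values and are 10 of the 22180 genes measured, each with 1 probe set. RNA from the kidney cortex of mice aged 3 months and fed a normal diet had been measured on 16 arrays, 4 in each of 4 genotype groups. Double mutants carried floxed (F/F, loxP-flanked) alleles of both Vhl and Pbrm1 together with Ksp-Cre, Vhl mutants carried Vhl F/F with Ksp-Cre, and Pbrm1 mutants carried Pbrm1 F/F with Ksp-Cre. The last group was wild type, and its labels name no floxed allele and no Cre. Ksp-Cre is a Cre recombinase under the promoter of Cdh16, a cadherin of tubule epithelium, so deletion is directed to tubule cells while the other cells of the cortex keep both genes. Wild-type mice were C57BL/6 and all 3 mutant groups were a mix of C57BL/6, BALB/c and 129, so strain and genotype cannot be told apart in any comparison with wild type; the mutant groups share 1 strain label. The stated aim was to find early transcriptional changes that may matter for clear cell renal cell carcinoma, in which VHL and PBRM1 are tumor suppressor genes.

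Principal cells take up water and sodium at the end of the nephron under the control of 2 hormones, vasopressin and aldosterone. Vasopressin binds the V2 receptor, encoded by Avpr2, and through cyclic AMP brings the water channel Aqp2 to the apical membrane; water then leaves across the basolateral membrane through Aqp3 and Aqp4. Aldosterone, through the mineralocorticoid receptor, raises sodium entry through the epithelial sodium channel ENaC, whose α, β and γ subunits are encoded by Scnn1a, Scnn1b and Scnn1g. Hsd11b2 inactivates glucocorticoids in the same cells and so keeps the mineralocorticoid receptor selective for aldosterone. Stc1 encodes stanniocalcin-1, a secreted glycoprotein made in the distal nephron, and Tmem45b encodes a transmembrane protein. Pbrm1 belongs to the chromatin remodeler PBAF, and the Vhl product directs a ubiquitin ligase to hypoxia-inducible factors, which are then degraded.

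The promoters of Aqp2, Aqp3, Scnn1b and Scnn1g are shown because they set a water channel whose level was not called in any comparison beside 3 genes that fell in double mutants. Each is the 250 bases before the start site that the promoter table gives, read 5′ to 3′ on the strand of the gene, from RefSeq with build GRCm38.p6, in which 5 of the 10 members had an entry. The entry not shown is that of Avpr2, which was not called in any comparison either. Capitals mark every match, on either strand, to 4 short motifs. The first is the core of the cyclic AMP response element, spelled TGACG. Another is the site of GATA factors, spelled AGATAA. The core to which steroid receptors bind was searched as AGAACA. The hypoxia response core was searched as ACGTG.
Aqp2, chr15:99578806-99579055, plus strand: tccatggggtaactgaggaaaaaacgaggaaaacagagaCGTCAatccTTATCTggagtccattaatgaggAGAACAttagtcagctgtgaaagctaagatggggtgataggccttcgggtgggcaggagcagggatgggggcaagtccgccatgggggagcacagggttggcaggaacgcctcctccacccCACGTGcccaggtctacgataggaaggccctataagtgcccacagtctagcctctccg
Aqp3, chr4:41098184-41098433, minus strand: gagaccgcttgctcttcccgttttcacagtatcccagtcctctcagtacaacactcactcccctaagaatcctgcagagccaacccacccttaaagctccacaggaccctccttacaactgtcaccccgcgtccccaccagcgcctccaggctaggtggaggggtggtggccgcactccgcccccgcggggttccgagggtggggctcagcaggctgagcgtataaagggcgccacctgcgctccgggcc
Scnn1b, chr7:121864788-121865037, plus strand: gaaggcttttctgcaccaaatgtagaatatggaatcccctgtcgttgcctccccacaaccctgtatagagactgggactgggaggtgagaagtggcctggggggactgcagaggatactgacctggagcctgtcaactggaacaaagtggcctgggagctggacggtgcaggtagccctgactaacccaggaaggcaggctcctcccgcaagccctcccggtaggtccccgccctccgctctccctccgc
Scnn1g, chr7:121734229-121734478, plus strand: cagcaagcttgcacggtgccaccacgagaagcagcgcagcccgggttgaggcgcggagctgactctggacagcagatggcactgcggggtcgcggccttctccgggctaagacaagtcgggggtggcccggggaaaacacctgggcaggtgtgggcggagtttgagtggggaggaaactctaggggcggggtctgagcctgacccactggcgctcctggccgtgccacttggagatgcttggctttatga
The Aqp2 promoter held all 4 motifs, the cyclic AMP and GATA motifs as their reverse complements. Nearest the start site the hypoxia core overlaps its own reverse complement. The other promoters shown held none of the 4 motifs in these windows. Whether the motifs go with the calls was not tested. Of 32851 mouse promoter windows in the same table, 17.8% held the cyclic AMP motif, 16.6% the hypoxia core, 16.1% the steroid receptor motif and 9.99% the GATA motif. Scnn1b and Scnn1g are neighbours on chromosome 7, 96.6 kilobases apart.

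All members were above the lower quartile of every array, which lay between 3.60 and 3.72. Markers of the proximal tubule, the main tubule of the cortex, had a mean level between 11.59 and 11.78 on every array. The probe sets of the 2 deleted genes passed no comparison with wild type (log2 differences between -0.12 and -0.01), so they give no check of the genotype labels. Cdh16 itself averaged 10.47 ± 0.02 for double mutants, 10.57 ± 0.06 for Vhl, 10.73 ± 0.03 for Pbrm1 mutants and 10.79 ± 0.05 for wild type (SD, n = 4). By limma's test against wild type it was lower in double mutants (-0.33 ± 0.05, SE, adjusted p = 5.42e-05) and in Vhl mutants (-0.22 ± 0.05, adjusted p = 0.00823). In Pbrm1 mutants it did not pass (-0.06 ± 0.05, adjusted p = 0.586). Nothing in the labels ties the 4 arrays of a genotype to 4 separate mice: each group carries only 2 description numbers, and these may mark animals. The p-values therefore measure the spread between arrays, which may be partly technical, and calls that are lost when arrays are averaged per number are named below. Replicates 2 and 3 of the double mutants share a whole description, although their values differed as much as those of other double mutant pairs. Vhl mutant arrays have higher numbers than any other group, so a batch, if there was one, cannot be told apart from the Vhl genotype. In whole cortex, fewer principal cells, less RNA per principal cell and a change in other cells that hold a member's RNA cannot be told apart.

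**Figure D1:**
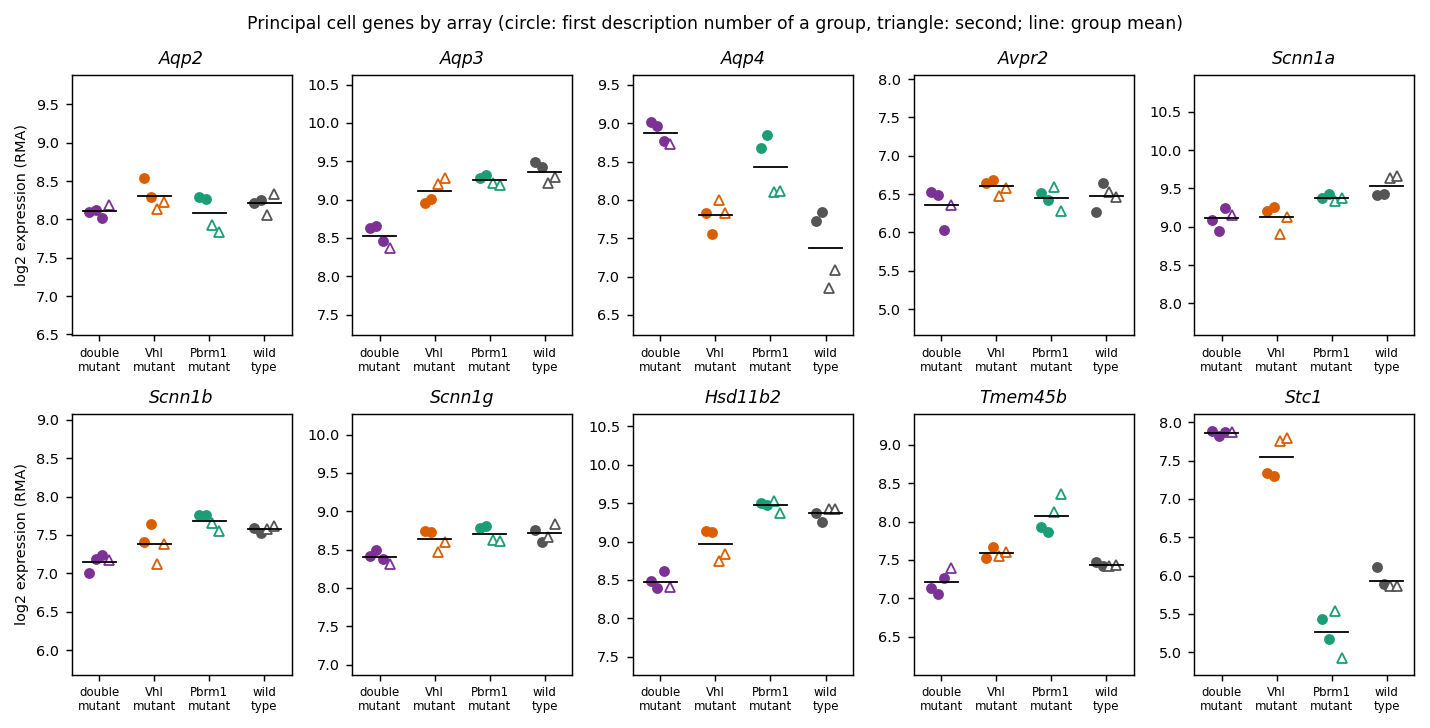
Log2 array value (vertical axes) of each of the 10 member genes on the 16 arrays, by genotype group, with filled circles for 1 description number of a group, open triangles for the other and a line at the group mean. Stc1 and Aqp4 stand highest in double mutants, Hsd11b2 and Aqp3 stand lowest there, and Aqp2 and Avpr2 overlap across all groups.

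Most members changed in double mutants, and each way. The members and the lists below were chosen with earlier results of these data known. Their counts, here and below, are therefore no test against the shares of all genes. Of the 10, 7 passed limma's test against wild type at an adjusted p under 0.05, with Stc1 and Aqp4 higher and Hsd11b2, Aqp3, Scnn1a, Scnn1b and Scnn1g lower. Over all genes 12.2% passed in either direction, 6.64% higher and 5.56% lower; with each array centred on its median the lower calls were the more numerous (1236 higher and 1404 lower). The median log2 change was -0.27 over the members and -0.02 over all genes. In Vhl mutants 3 members passed against wild type, Stc1 higher and Hsd11b2 and Scnn1a lower, beside 3.84% of all genes (2.04% higher and 1.79% lower). In Pbrm1 mutants 3 passed, Aqp4 and Tmem45b higher and Stc1 lower, beside 4.04% of all genes (1.59% higher and 2.45% lower). The members' median was 0.00 in Vhl mutants and -0.01 in Pbrm1 mutants, and -0.01 over all genes in each. Counted by arrays that do not overlap, 2 members were higher and 6 lower in double mutants than in wild type, beside 9.21% and 8.53% of all genes. In Vhl mutants 2 were higher and 2 lower, beside 5.07% and 5.71%, and in Pbrm1 mutants 2 were higher and 1 lower, beside 5.0% and 6.85%. All of these comparisons share the wild-type arrays. Aqp2 and Avpr2 passed in none.

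Among the water channels, the apical channel Aqp2 had no called difference. It measured 8.10, 8.12, 8.02 and 8.19 in double mutants, 8.54, 8.29, 8.14 and 8.23 in Vhl mutants, 8.29, 8.27, 7.93 and 7.84 in Pbrm1 mutants, and 8.22, 8.26, 8.06 and 8.33 in wild type. The ranges of all groups overlapped. The log2 difference between double mutants and wild type was -0.11 ± 0.10 (SE, adjusted p = 0.609), that of Vhl mutants 0.08 ± 0.10 (adjusted p = 0.763) and that of Pbrm1 mutants -0.13 ± 0.10 (adjusted p = 0.588). Within Pbrm1 mutants Aqp2 averaged 8.28 in replicates 1 and 2 and 7.89 in replicates 3 and 4. Leaving out arrays or numbers moved the Pbrm1 difference between -0.33 and 0.06. Avpr2, the receptor upstream of it, measured 6.53, 6.49, 6.03 and 6.36 in double mutants and 6.27, 6.64, 6.53 and 6.46 in wild type, with a range of 6.48 to 6.69 in Vhl mutants and of 6.28 to 6.59 in Pbrm1 mutants. It too overlapped in every pair of groups, with a difference of -0.12 ± 0.11 between double mutants and wild type (adjusted p = 0.59).

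The basolateral channel Aqp3 was lowest in double mutants. Its values were 8.63, 8.66, 8.46 and 8.37 there, 8.95, 9.01, 9.20 and 9.28 in Vhl mutants, 9.28, 9.32, 9.22 and 9.19 in Pbrm1 mutants, and 9.49, 9.43, 9.21 and 9.29 in wild type. Every double mutant array was below every array of the other groups, whose ranges overlapped each other. Aqp3 fell 1.78-fold in double mutants against wild type (log2 difference -0.83 ± 0.08, adjusted p = 7.72e-07), 1.5-fold against Vhl mutants (adjusted p = 0.000135) and 1.66-fold against Pbrm1 mutants (adjusted p = 4.12e-06). The single mutants did not pass against wild type, at -0.24 ± 0.08 in Vhl mutants (adjusted p = 0.117) and -0.10 ± 0.08 in Pbrm1 mutants (adjusted p = 0.621). The Vhl difference passed without wild-type replicates 3 and 4 (adjusted p = 0.0437) or without Vhl replicates 3 and 4 (adjusted p = 0.026).

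Aqp4, the other basolateral channel, went the opposite way. It measured 9.02, 8.96, 8.77 and 8.73 in double mutants, 7.83, 7.56, 8.0 and 7.83 in Vhl mutants, 8.68, 8.84, 8.10 and 8.12 in Pbrm1 mutants, and 7.73, 7.84, 6.85 and 7.09 in wild type. Every array of the double mutants and of the Pbrm1 mutants was above every wild-type array, while the Vhl mutants overlapped wild type. Aqp4 rose 2.80-fold in double mutants against wild type (log2 difference 1.48 ± 0.19, adjusted p = 1.56e-05) and 2.08-fold in Pbrm1 mutants (1.06 ± 0.19, adjusted p = 0.00211). The Pbrm1 call was lost with arrays averaged per description number (adjusted p = 0.0698). In Vhl mutants the difference was 0.42 ± 0.19 (adjusted p = 0.264).

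The values of Aqp4 went by description number in 2 groups. In wild type they averaged 7.79 in replicates 1 and 2 and 6.97 in replicates 3 and 4, and in Pbrm1 mutants 8.76 in replicates 1 and 2 and 8.11 in replicates 3 and 4. Within Vhl mutants the averages were closer, 7.70 and 7.91. Without wild-type replicates 1 and 2, Aqp4 passed in Vhl mutants too (0.83, adjusted p = 0.0193), and without Pbrm1 replicates 1 and 2 it no longer passed in Pbrm1 mutants (adjusted p = 0.061) but was higher in double than in Pbrm1 mutants (adjusted p = 0.0272). In the mouse Aqp4 is also found in the last segment of the proximal tubule, so its RNA in whole cortex need not come from principal cells.

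The 3 ENaC subunits were all lower in double mutants, by less than the other called genes. Scnn1a measured 9.09, 8.95, 9.24 and 9.15 in double mutants, 9.20, 9.26, 8.91 and 9.13 in Vhl mutants, 9.37, 9.43, 9.33 and 9.37 in Pbrm1 mutants, and 9.42, 9.43, 9.64 and 9.66 in wild type. Both groups with floxed Vhl lay wholly below wild type, and they overlapped each other. Scnn1a fell 1.35-fold in double mutants (log2 difference -0.43 ± 0.08, adjusted p = 0.00111) and 1.33-fold in Vhl mutants (-0.41 ± 0.08, adjusted p = 0.00502), and the Vhl mutant call did not pass with arrays averaged per number (adjusted p = 0.0813). The Vhl mutant call was also lost without wild-type replicates 3 and 4 (adjusted p = 0.0617) and without Vhl replicates 3 and 4 (adjusted p = 0.0522). Between double and Vhl mutants the difference was -0.02 ± 0.08 (adjusted p = 0.952).

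Scnn1b measured 7.0, 7.19, 7.24 and 7.17 in double mutants, 7.41, 7.64, 7.12 and 7.38 in Vhl mutants, 7.76, 7.76, 7.66 and 7.55 in Pbrm1 mutants, and 7.59, 7.53, 7.58 and 7.62 in wild type. All double mutant arrays were below all Pbrm1 mutant and wild-type arrays, and 1 Vhl mutant array lay among the double mutants. The fall was 1.35-fold against wild type (-0.43 ± 0.09, adjusted p = 0.00321) and 1.45-fold against Pbrm1 mutants (adjusted p = 0.00049). Scnn1g measured 8.42, 8.49, 8.38 and 8.31 in double mutants and 8.75, 8.6, 8.66 and 8.83 in wild type, with a range of 8.47 to 8.74 in Vhl mutants and of 8.61 to 8.81 in Pbrm1 mutants. Its double mutant arrays were below those of Pbrm1 mutants and wild type, and it fell 1.25-fold against wild type (-0.32 ± 0.08, adjusted p = 0.00793; adjusted p = 0.0554 with arrays averaged per number). Scnn1g was also lost without wild-type replicates 3 and 4 (adjusted p = 0.0596). Against Vhl mutants, Scnn1b and Scnn1g passed without Vhl replicate 3 (adjusted p = 0.0293 and 0.0261). All 3 subunits lost their call against wild type when double mutant replicates 1 to 3 were left out, which leaves 1 array (adjusted p = 0.072 for Scnn1a, 0.118 for Scnn1b and 0.061 for Scnn1g).

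Hsd11b2, which guards the mineralocorticoid receptor, had the largest fall of the members in double mutants. It measured 8.48, 8.40, 8.61 and 8.41 in double mutants, 9.14, 9.12, 8.75 and 8.84 in Vhl mutants, 9.50, 9.48, 9.53 and 9.37 in Pbrm1 mutants, and 9.37, 9.26, 9.42 and 9.43 in wild type. The double mutants lay below all other arrays and the Vhl mutants below wild type, while Pbrm1 mutants and wild type overlapped. The fall was 1.86-fold in double mutants against wild type (-0.90 ± 0.08, adjusted p = 1.96e-07) and 1.33-fold in Vhl mutants (-0.41 ± 0.08, adjusted p = 0.00593; adjusted p = 0.109 with arrays averaged per number). The Vhl mutant call was lost without wild-type replicates 3 and 4 (adjusted p = 0.0504) or without Vhl replicates 3 and 4 (adjusted p = 0.0849). Against Pbrm1 mutants the double mutants were 2.00-fold lower (adjusted p = 4.75e-08), and against Vhl mutants 1.4-fold lower (adjusted p = 0.00069).

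Tmem45b was the member that rose in Pbrm1 mutants and not in double mutants. Its values were 7.13, 7.05, 7.26 and 7.39 in double mutants, 7.52, 7.67, 7.55 and 7.6 in Vhl mutants, 7.93, 7.87, 8.13 and 8.36 in Pbrm1 mutants, and 7.47, 7.42, 7.42 and 7.43 in wild type. The order from double mutants through wild type and Vhl mutants to Pbrm1 mutants held with no overlap between neighbours. It rose 1.55-fold in Pbrm1 mutants against wild type (0.63 ± 0.09, adjusted p = 0.000348). In double mutants the difference from wild type was -0.22 ± 0.10 and did not pass (adjusted p = 0.164). Double mutants were 1.81-fold lower than Pbrm1 mutants (adjusted p = 2.82e-06) and 1.29-fold lower than Vhl mutants (adjusted p = 0.0226; adjusted p = 0.225 with arrays averaged per number). The call against Vhl mutants was lost without double mutant replicate 1 (adjusted p = 0.059), without double mutant replicate 2 (0.0675) and without Vhl replicate 2 (0.0699). It was also lost without Vhl replicates 1 and 2 (0.0827) or 3 and 4 (0.0703), and without double mutant replicates 1 to 3 the log2 difference was -0.19 (0.723), against -0.37 with all arrays.

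Stc1 had the largest difference of the 10 from wild type in double mutants and in Vhl mutants. It measured 7.89, 7.82, 7.87 and 7.87 in double mutants, 7.34, 7.30, 7.76 and 7.80 in Vhl mutants, 5.43, 5.18, 5.54 and 4.93 in Pbrm1 mutants, and 6.11, 5.89, 5.87 and 5.87 in wild type. No neighbouring groups overlapped, with Pbrm1 mutants lowest. Stc1 rose 3.81-fold in double mutants (1.93 ± 0.13, adjusted p = 3.72e-09) and 3.07-fold in Vhl mutants (1.62 ± 0.13, adjusted p = 3.33e-07), and fell 1.58-fold in Pbrm1 mutants (-0.66 ± 0.13, adjusted p = 0.00471), each against wild type. The Pbrm1 call was lost without wild-type replicates 1 and 2 (adjusted p = 0.0539). Double mutants exceeded Pbrm1 mutants 6.04-fold (adjusted p = 8.4e-11), while their difference from Vhl mutants, 0.31 ± 0.13, did not pass (adjusted p = 0.19). Within Vhl mutants Stc1 averaged 7.32 in replicates 1 and 2 and 7.78 in replicates 3 and 4, and without replicates 3 and 4 the difference from double mutants passed (adjusted p = 0.0191).

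**Figure D2:**
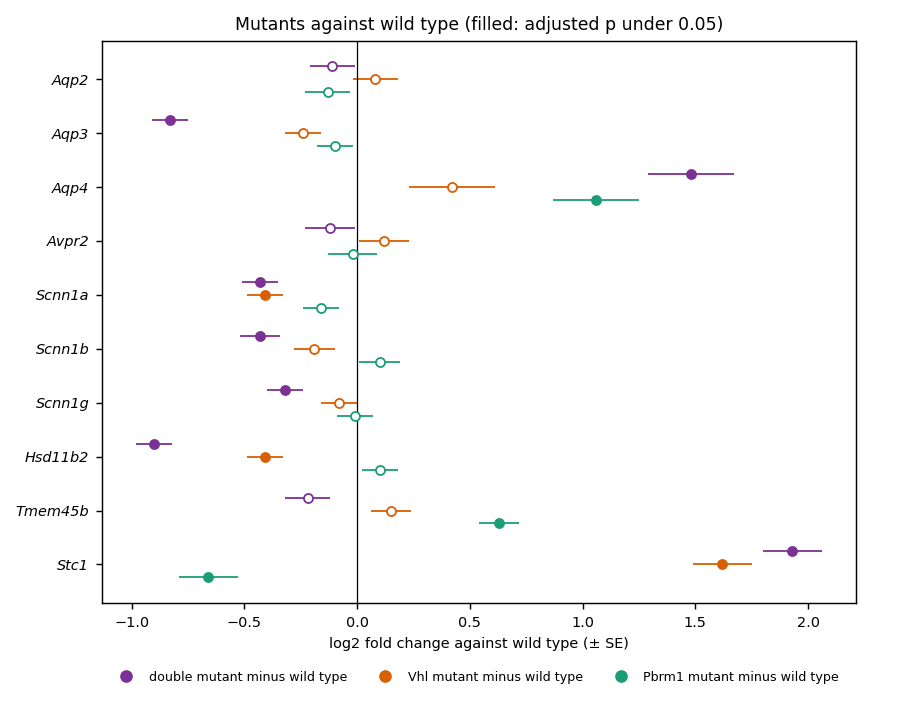
Log2 difference from wild type of the 10 members in double, Vhl and Pbrm1 mutants, with standard errors from the limma fit and filled symbols for adjusted p under 0.05. Stc1 reaches 1.93 in double mutants and 1.62 in Vhl mutants and lies at -0.66 in Pbrm1 mutants, and Hsd11b2 and Aqp3 have the lowest double mutant values, -0.90 and -0.83.

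Between mutant groups of the same strain label, 4 members passed in double against Vhl mutants, Aqp4 higher and Aqp3, Hsd11b2 and Tmem45b lower, beside 6.35% of all genes (3.8% higher and 2.55% lower). Against Pbrm1 mutants 7 passed, Stc1 higher and Aqp3, Scnn1a, Scnn1b, Scnn1g, Hsd11b2 and Tmem45b lower, beside 10.2% of all genes, 6.82% higher and 3.37% lower. Without overlap, 2 were higher and 3 lower than in Vhl mutants (7.55% and 6.25% of all genes), and 1 was higher and 6 lower than in Pbrm1 mutants (9.71% and 7.75%). The smallest of these, Scnn1a (1.20-fold lower, adjusted p = 0.0421), did not pass with arrays averaged per number (adjusted p = 0.176), and neither did Scnn1g (1.24-fold lower, adjusted p = 0.00978 and, averaged, 0.0675). The Scnn1a call was lost without any 1 Pbrm1 array or without double mutant replicate 1, 2 or 4 (adjusted p up to 0.125), and that of Scnn1g without Pbrm1 replicates 1 and 2 (0.171). Aqp4 was 2.09-fold higher in double than in Vhl mutants (adjusted p = 0.00137), a call lost without double mutant replicates 1 to 3 (0.158).

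The interaction asks whether the double mutant effect departs from the sum of both single effects on the log2 scale, which is the same as asking whether double minus Vhl mutants differs from Pbrm1 mutants minus wild type. Wild type enters the interaction, so strain and genotype cannot be told apart in it either. It passed for 4 of the 10 members, 1 upward and 3 downward, beside 2.63% of all genes (1.78% and 0.852%). For Hsd11b2 the double effect was -0.90 and the single effects sum to -0.31, a departure of -0.59 ± 0.12 (adjusted p = 0.00767), and for Aqp3 the values were -0.83 and -0.35 (departure -0.48 ± 0.12, adjusted p = 0.0308). For Tmem45b the double effect was -0.22 and the sum 0.78 (departure -1.0 ± 0.13, adjusted p = 0.000251). For Stc1 they were 1.93 and 0.96 (departure 0.98 ± 0.19, adjusted p = 0.00628). With arrays averaged per number only Tmem45b passed (adjusted p = 0.0418; Aqp3 0.191, Hsd11b2 0.114, Stc1 0.0597). The Aqp3 departure was lost when any of 7 single arrays was left out, wild-type 3, double mutant 3 or 4, Pbrm1 1 or 2, or Vhl 3 or 4 (adjusted p up to 0.0699), and that of Stc1 without double mutant replicates 1 to 3 (0.0917). For Aqp4 the double effect and the sum were both 1.48, with a departure of 0.00 ± 0.27.

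**Figure D3:**
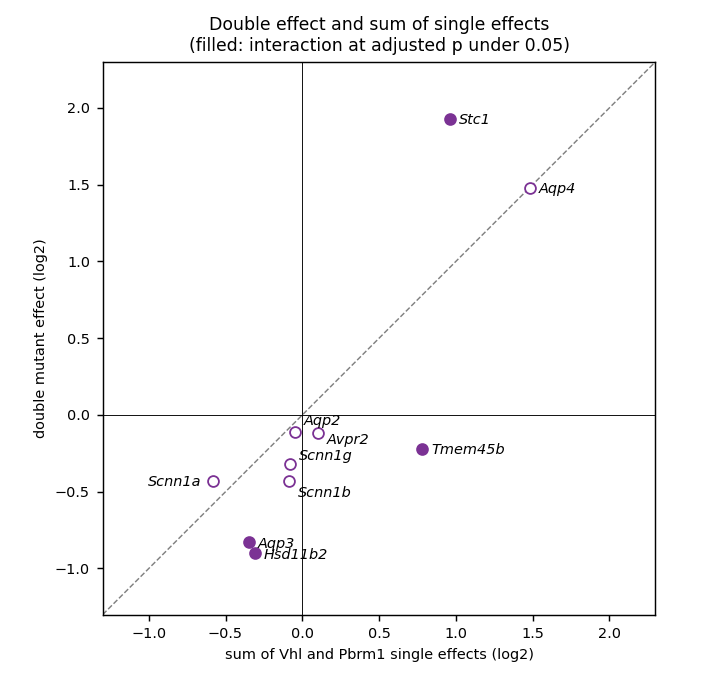
Double mutant effect against the sum of the Vhl and Pbrm1 effects, both as log2 differences from wild type, for the 10 members, with a dashed line where the values are equal and filled symbols where the interaction had an adjusted p under 0.05. Aqp4 sits on the line at 1.48, Stc1 above it, and Hsd11b2, Aqp3 and Tmem45b below it.

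Lists of genes that act around the members had calls in each direction, to be read beside the shares of all genes called: 6.64% higher and 5.56% lower in double mutants, 2.04% and 1.79% in Vhl mutants, and 1.59% and 2.45% in Pbrm1 mutants. Of 19 measured genes of vasopressin signalling and Aqp2 trafficking, 4 rose and 0 fell in double mutants against wild type, among them Elf3 (0.94 ± 0.09, adjusted p = 5.89e-07) and Elf5 (0.42 ± 0.12, adjusted p = 0.0224), ETS factors reported to act on Aqp2, and Nfat5, a tonicity-responsive factor (0.34 ± 0.06, adjusted p = 0.000687). The fourth, Prkar2b, was near background in wild type (4.64 in double mutants, 3.75 in wild type). Elf5 was low too, at 4.83 in double mutants and 4.42 in wild type, below the lowest array median of 5.18. In Vhl mutants Elf3 rose (0.45 ± 0.09, adjusted p = 0.00691) and the membrane linker Ezr fell (-0.27 ± 0.05, adjusted p = 0.0032), and in Pbrm1 mutants 0 of 19 passed. Of 19 genes of aldosterone action and ENaC regulation, 5 fell and 0 rose in double mutants: Klk1, the tissue kallikrein of the connecting tubule (-0.66 ± 0.06, adjusted p = 7.9e-08), the kinase Wnk1 (-0.26 ± 0.05, adjusted p = 0.00214), the potassium channel Kcnj1 (-0.37 ± 0.08, adjusted p = 0.00375), the channel-activating protease Prss8 (-0.28 ± 0.07, adjusted p = 0.0156) and the mineralocorticoid receptor gene Nr3c2 (-0.29 ± 0.09, adjusted p = 0.0353). In Vhl mutants 4 fell, Klk1, Wnk1, Wnk4 and Nr3c2, and in Pbrm1 mutants Kcnj10 rose (0.44 ± 0.09, adjusted p = 0.00443) and Prss8 fell (-0.28 ± 0.07, adjusted p = 0.031). The aldosterone-induced kinase Sgk1 was at -0.10 ± 0.19 in double mutants (adjusted p = 0.831). Among 9 other aquaporins and urea transporters, Aqp11 fell in double mutants (-0.23 ± 0.07, adjusted p = 0.0279) and the urea transporter Slc14a2 fell in Vhl mutants (-0.81 ± 0.21, adjusted p = 0.0382).

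Other cell types moved with the same comparisons. Of 7 other principal cell markers, 1 rose and 1 fell in double mutants and 0 passed in either single mutant. The called markers were Elf5, which rose, and Kcnj1, which fell, and both are counted in the lists above too. The mean level of the 7 markers ran over 6.79 to 6.95 for double mutants, 6.96 to 7.28 for Vhl mutants, 6.80 to 7.03 for Pbrm1 mutants, and 6.89 to 7.02 for wild type. Markers of intercalated cells, the acid and base secreting neighbours of principal cells, fell more widely: 10 of 12 in double mutants, 7 in Vhl mutants and 2 in Pbrm1 mutants, with 0 higher. Their mean level was 7.22 to 7.28 for double mutants, 7.37 to 7.76 for Vhl mutants, 7.83 to 8.02 for Pbrm1 mutants, and 8.06 to 8.19 for wild type. Rhcg, an ammonia channel gene of the same list, fell by 1.65 on the log2 scale in double mutants (SE 0.08, adjusted p = 1.14e-10). The markers of this list that did not pass in double mutants were Foxi1 (-0.07 ± 0.11) and Aqp6 (-0.08 ± 0.16). Of 8 markers of the connecting and distal convoluted tubule, 5 fell and 1 rose in double mutants, Klk1 and the ubiquitin ligase adaptor Klhl3 (-0.62 ± 0.08, adjusted p = 2.79e-05) among those that fell. Klk1 is counted in the aldosterone list too.

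Beside the same shares of all genes, the tubular injury markers all rose in double mutants (7 of 7, Lcn2 by 3.13 ± 0.17), as did 5 of 7 in Vhl mutants and 0 in Pbrm1 mutants. Targets of hypoxia-inducible factors rose 9 of 9 in double mutants and 7 of 9 in Vhl mutants, against 2 of 9 in Pbrm1 mutants. Of 9 macrophage markers 5 rose in double and 7 in Vhl mutants, and of 7 endothelial markers 5 rose in each. Of 6 inner medulla and osmolyte genes, 2 rose and 1 fell in double mutants, and 2 fell in each single mutant. Their mean level was 7.67 to 7.85 for double mutants, 7.57 to 7.78 for Vhl mutants, 7.44 to 7.77 for Pbrm1 mutants and 7.77 to 7.96 for wild type. Nfat5, counted in the vasopressin list too, was among those that rose. The depth of the cortex cut was not measured. In double mutants 3 of 7 thick ascending limb markers rose and 2 fell, 1 of 9 proximal tubule markers rose and 2 fell, and 1 of 6 urothelium markers rose and 0 of 6 adipose markers passed. With 12.2% of all genes called in that comparison, 1 call in a list of this size is near the background. The part of any of these cell types in the members' values was not tested.

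**Figure D4:**
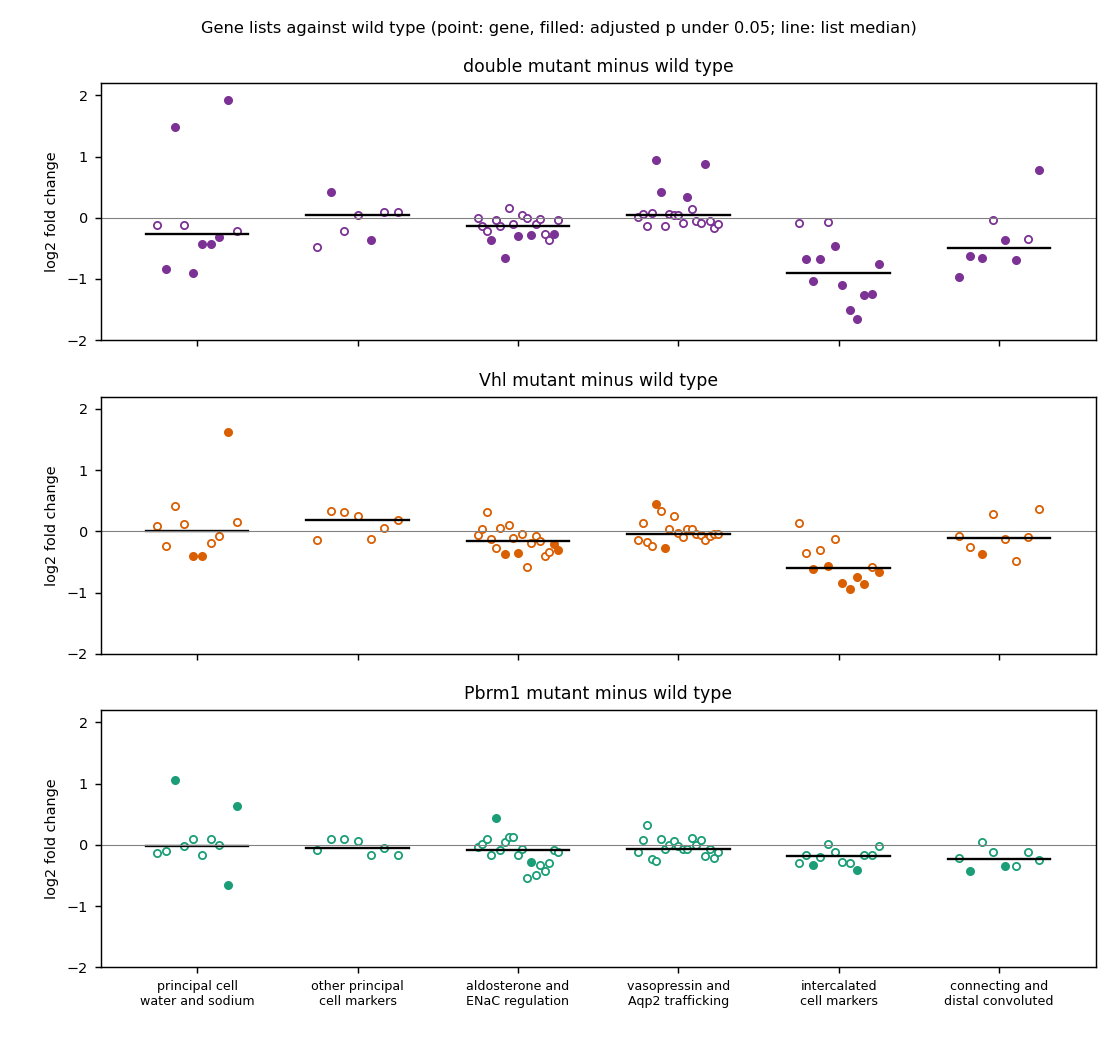
Log2 difference from wild type (vertical axes) of each gene of the 10 members and of 5 lists around them, in double, Vhl and Pbrm1 mutants (panels from top to bottom), filled where the adjusted p was under 0.05 and with a line at the list's median. In double mutants the median of the intercalated cell markers lies at -0.9, that of the members at -0.27 and that of the other principal cell markers at 0.04.

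The genes whose pattern over the 16 arrays was most like that of 3 members were listed by Pearson's r, as a description; the arrays pool the 4 groups, so r includes the differences between groups. For Hsd11b2 they were Klk1 (r = 0.961), Klk1b5 (0.956), Proz (0.945), Trabd2b (0.94) and Osbp2 (0.94); Klk1 and Klk1b5 are near-identical kallikreins that probe sets may not separate. For Stc1 they were Plat (r = 0.982), which encodes tissue plasminogen activator, the glycolytic gene Pfkl (0.972), Osmr (0.971), Serping1 (0.97) and Fgf11 (0.97). For Aqp2 the values were lower, with Lfng first (0.867), then Kif2b (0.849), Ephb1, Gzmg and Rgl3, down to 0.82. Kif2b and Gzmg lay between 2.85 and 3.94, at the bottom of the arrays.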

How the data were processed

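Trizol-extracted RNA of the cortex was measured as biotinylated cRNA on Affymetrix arrays (protocols in the labels). The submitters' processing notes name RMA and Affymetrix Expression Console 1.4 for the log2 values the authors deposited. Their table holds 41345 probe sets and 16 arrays, with 0 columns unused. Probe sets with 1 gene symbol (23521) were kept, those with several (1814) or not listed (16010) left out, and the probe set of highest mean was used for the 1082 genes with more than 1, giving 22180 genes. The array's build is not given in the sources used here. No filter on level was applied, and values of different probe sets were not compared.

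Linear models over all 16 arrays used limma 3.58.1 (R 4.3.3), a fixed effect for each group, the description number as a random block (duplicateCorrelation, correlation 0.0838) and a prior variance following mean level; p-values were adjusted by Benjamini-Hochberg over all 22180 genes in each of 6 comparisons, and called at 0.05. The block correlation is 1 value for all genes. It does not follow genes such as Aqp4, whose values went by description number. Precision is set by how few arrays there are: standard errors had medians of 0.115 to 0.116, and 0.163 for the interaction. In simulated data for double mutants against wild type with 22180 genes and 200 planted changes, 73% of 1.5-fold and 97% of 2-fold changes were called, and 6.59% of calls were not planted. The simulated arrays were independent, with no correlation within a description number. These rates therefore do not cover data in which arrays of 1 number are alike. Named genes were the 10 members, both deleted genes and Cdh16, up to 4 called genes per comparison of smallest adjusted p from the vasopressin, aldosterone and aquaporin lists, up to 2 from each cell type list given beside a member, and the 5 genes most like Aqp2, Hsd11b2 and Stc1. Sgk1, Foxi1, Aqp6, Nr3c2 in double mutants and the X-linked and Y-linked checks below were named outside this rule, after their values were seen. The members and lists were chosen with earlier results of these data known. Replicate numbers did not pair samples: the correlation of same-numbered deviations lay between -0.0744 and 0.059 over 24 pairs. Tried instead were arrays averaged per number, no block, the replicate block, a dim gene filter, probe set means, centring, quantile normalization, no trend, only the groups compared, averaged double mutant replicates 2 and 3, and leaving out each array or number. Tables and figures were made with pandas 2.3.3, matplotlib 3.10.9 and numpy 2.4.6 under Python 3.11.15.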

Additional observations from a re-analysis of the deposited data

Results flagged for a closer look

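For 4 members the difference between double and Vhl mutants departed from that between Pbrm1 mutants and wild type, by limma's interaction test; the wild-type strain enters this test, so strain and genotype cannot be told apart in it. The log2 departure was -0.48 for Aqp3, -0.59 for Hsd11b2, -1.0 for Tmem45b and 0.98 for Stc1. In wild type, replicate 1 of Stc1 (6.11) stood apart from the other 3 arrays, which lay between 5.87 and 5.89. That was 1 of 40 gene and group sets examined with Dixon's criterion, and chance marks about 1 in 20.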

How the results depend on the processing

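No called member changed sign under any alternative run. With arrays averaged per description number, 10 of 28 called member and comparison pairs no longer passed: 1 member passed in Vhl mutants and 1 in the interaction, and the genes called were 1729 in double mutants against wild type (2706 with the block), 246 in Vhl mutants (851), 274 in Pbrm1 mutants (895), 710 in double against Vhl mutants (1408), 1398 in double against Pbrm1 mutants (2260) and 99 in the interaction (583). The interaction also gave 884 genes with no block and 337 with no trend; the cause was not tested. The replicate block, although the numbers did not pair samples (0 of 24 correlations over 0.1, and 5 of the 24 pairs best with their own number), gave 3075 genes in double mutants against wild type and added 1 member call, Scnn1g in double against Vhl mutants (adjusted p = 0.0448). Leaving out 1 array or 1 number gave members called of 4 to 7 in double mutants against wild type, 2 to 4 in Vhl mutants, 2 to 3 in Pbrm1 mutants, 2 to 6 in double against Vhl mutants, 5 to 7 in double against Pbrm1 mutants and 3 to 4 in the interaction; genes called were 1212 to 2530, 369 to 1021, 349 to 865, 481 to 1376, 1011 to 2057 and 236 to 988 in that order. Where 1 double mutant array was left it was assumed to vary like the other groups. Quantile normalization added Scnn1g in double against Vhl mutants (adjusted p = 0.0303) and lost Scnn1a in double against Pbrm1 mutants (0.0696), and no trend lost it (0.0939) and the Aqp3 interaction (0.0841). The share of calls that were higher moved with scaling: in double mutants against wild type 54.4%, and 46.8% with arrays centred, which turns the direction; in Vhl mutants 53.2% and 36.3% with arrays centred; in double against Pbrm1 mutants 66.9%, and 52.5% centred or 55.8% with quantile normalization; in double against Vhl mutants 59.8% and 48.0% with quantile normalization; and in the interaction 67.6% and 51.8%. With 4 arrays a group, small differences could go uncalled.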

Other observations

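The X-linked Xist and 3 Y-linked genes gave 0 of 4 calls in any of the comparisons. Xist lay below the lower quartile on every array.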
